A study of Mus musculus with 12 samples.

Results

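The H3K9me3 peaks found only in villi were 1219 of the 2089 peaks in the villi H3K9me3 list. They were chosen by one rule, that no peak of the crypts H3K9me3 list overlaps them by 1 bp or more. That is 58.4% of the villi list (95% Wilson interval 56.2% to 60.5%), and 60.6% of the 2126 crypts peaks, 1289 in number, likewise had no villi peak. The remaining 870 villi peaks overlapped a crypts peak and are called shared here. Since the rule used the presence of a peak in both lists, villi-only is the selection itself and carries no test.

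The libraries were made from mouse small intestine, from villi that were scraped off with coverslips and from crypts that were released with EDTA afterwards. Each compartment has 1 library for each of 5 H3 modifications and 1 input, 12 libraries in all, with 5% of Drosophila S2 chromatin added as a spike-in. Strain, age, sex and the number of animals behind each library are not given in the sources used here. With 1 library per group there is no replicate check, and no comparison of crypts with villi was tested; bulk chromatin also cannot tell fewer cells with the mark from less mark per cell.

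H3K9me3, trimethylated lysine 9 of histone H3, is the mark of constitutive heterochromatin. SETDB1 and the SUV39H enzymes write it, HP1 proteins read it, and Krüppel-associated box zinc finger proteins with TRIM28 bring SETDB1 to transposable elements and imprinted control regions. In the intestine, stem and dividing cells sit in the crypts, and their differentiated progeny cover the villi.

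The H3K4me3 lists were checked at marker promoters, within 1 kb of a start site. Of 7 villi genes (among them Alpi, Vil1 and Fabp1), 7 had a peak in villi and 7 in crypts. Of 6 crypts genes (among them Lgr5 and Olfm4), 4 had a peak in villi and 5 in crypts. Promoters of lymphocyte genes (Ptprc, Cd3e, Cd8a and Gzma) had a peak in villi for 4 of 4 and in crypts for 0 of 4. For the mesenchyme genes Col1a1, Acta2, Pdgfra and Vim, the counts were 3 of 4 in villi and 2 of 4 in crypts. No member lay in any of these marker genes, but only 1.31% of all protein-coding genes held one. The part of other cell types in the villi-only peaks was not tested.

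The central 240 bases of 8 members are shown, to set single-copy sequence beside repeats. They are given 5′ to 3′ on the plus strand of GRCm38, as RefSeq's GRCm38.p6 holds them, with soft-masked bases (annotated repeats and low-complexity sequence) in capitals. The first 5 are the highest-scoring members of 5 of the largest runs described next, and they are mostly in lower case. Mkrn3 is shown for its promoter. The last pair is the highest-scoring member of all and the highest-scoring one with 80% or more of its bases masked. Lower case means unmasked and not single-copy, as the highest-scoring member is in lower case but has copies elsewhere in the genome.
Between Nphp4 and Ajap1, chr4:153003483-153003722: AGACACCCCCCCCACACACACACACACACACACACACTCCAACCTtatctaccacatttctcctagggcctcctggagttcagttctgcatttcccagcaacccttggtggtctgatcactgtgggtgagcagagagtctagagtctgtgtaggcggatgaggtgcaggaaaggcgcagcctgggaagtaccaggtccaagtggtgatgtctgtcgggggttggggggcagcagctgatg
Ajap1 intron, chr4:153439451-153439690: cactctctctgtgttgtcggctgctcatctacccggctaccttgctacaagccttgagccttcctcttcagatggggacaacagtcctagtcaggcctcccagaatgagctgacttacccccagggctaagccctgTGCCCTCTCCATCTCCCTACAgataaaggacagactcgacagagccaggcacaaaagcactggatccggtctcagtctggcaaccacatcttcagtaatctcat
Csmd2 intron, chr4:128019741-128019980: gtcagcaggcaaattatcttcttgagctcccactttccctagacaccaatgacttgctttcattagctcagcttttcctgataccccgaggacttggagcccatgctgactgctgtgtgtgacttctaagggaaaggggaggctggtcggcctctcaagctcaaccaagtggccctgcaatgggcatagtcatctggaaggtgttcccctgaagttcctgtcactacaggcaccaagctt
Beyond Tshz3, chr7:36843748-36843987: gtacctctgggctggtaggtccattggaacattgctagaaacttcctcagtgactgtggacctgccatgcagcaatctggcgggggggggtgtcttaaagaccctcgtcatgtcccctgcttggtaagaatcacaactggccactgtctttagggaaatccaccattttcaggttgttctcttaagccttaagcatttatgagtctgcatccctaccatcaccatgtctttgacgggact
Beyond Fam19a5, chr15:87939368-87939607: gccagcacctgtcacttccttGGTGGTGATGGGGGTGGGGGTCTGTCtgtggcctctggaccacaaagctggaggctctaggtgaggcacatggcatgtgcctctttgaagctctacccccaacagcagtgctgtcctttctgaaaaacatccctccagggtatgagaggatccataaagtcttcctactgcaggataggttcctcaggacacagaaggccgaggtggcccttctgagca
Mkrn3 coding exon, chr7:62419296-62419535: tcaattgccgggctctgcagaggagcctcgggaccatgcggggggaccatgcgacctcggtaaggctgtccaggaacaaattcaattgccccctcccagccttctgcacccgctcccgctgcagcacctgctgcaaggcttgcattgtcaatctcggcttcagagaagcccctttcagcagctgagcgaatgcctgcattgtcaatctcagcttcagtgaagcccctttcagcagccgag
Highest-scoring member, chr3:5860448-5860687: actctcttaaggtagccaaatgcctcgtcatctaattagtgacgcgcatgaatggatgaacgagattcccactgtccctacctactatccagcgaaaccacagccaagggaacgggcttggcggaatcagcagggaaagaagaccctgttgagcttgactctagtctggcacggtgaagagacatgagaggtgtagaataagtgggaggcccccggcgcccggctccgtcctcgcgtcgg
Near Vmn1r157, chr7:22744199-22744438: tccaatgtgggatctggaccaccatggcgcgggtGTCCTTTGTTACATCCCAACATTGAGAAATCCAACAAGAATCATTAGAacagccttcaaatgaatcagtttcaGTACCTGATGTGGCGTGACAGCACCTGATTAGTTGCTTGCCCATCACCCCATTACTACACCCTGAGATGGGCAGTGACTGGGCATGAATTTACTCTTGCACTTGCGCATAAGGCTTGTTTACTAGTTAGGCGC

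The villi-only peaks were narrow and low-scoring. Their median width was 674 bp (quartiles 486 and 960 bp). Shared villi peaks had a median width of 1024 bp, and crypts-only peaks of 725 bp. The score, −log10 of the MACS2 p-value and so dependent on depth, had a median of 11.9 (quartiles 10.9 and 13.5) in a list that starts at 10.0. Shared villi peaks had a median score of 13.9, and crypts-only peaks 11.7. Together the members covered 992 kb, against 1178 kb for the shared villi peaks. Scores above the rest were rare. The member at chr3:5860370-5860766 scored 154, the next at chr13:44869573-44869960 in an intron of Jarid2 scored 43.2, and another at chr4:122022212-122023642 scored 34.5.

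At the edge of the selection, the member nearest to a crypts peak lay 32 bp from it, in an intron of Ccdc85a at chr11:28533895-28534889. The next was 52 bp away, in intergenic sequence near Csnk1a1. Another, in an intron of Ajap1 at chr4:153406705-153408809, missed a crypts peak by 77 bp. On the shared side, the smallest overlaps were 35 bp near Zfp992, 43 bp in Csmd2 and 116 bp near Ywhah. Such near misses were few, since 41 members (3.36%) lay within 1 kb of a crypts peak. A further measure comes from the peak names, which are numbered in genome order. The crypts list runs to number 6830 and holds 2126 peaks, so 4704 numbers (68.9%) are not in it, and what those stood for is not given in the sources used here. Of the 1203 members with a crypts peak on either side of them, 72 (5.99%) lay between crypts peaks with consecutive numbers, where no such number could fall.

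Many members were far from the shared peaks. The median distance from a member to the nearest shared villi peak was 730019 bp (quartiles 77365 and 1950737 bp), and 524 members (43.0%) were over 1 Mb away. Only 23 (1.89%) lay within 1 kb of a shared peak and 109 (8.94%, interval 7.47% to 10.7%) within 10 kb. Members in the runs described next carried much of this, with 23.9% of them within 10 kb of a shared peak, against 4.98% of the members outside runs. Of crypts-only peaks, 9.62% lay within 10 kb of a shared peak, 25.1% within 100 kb and 40.4% over 1 Mb away. Distance from shared peaks was thus much alike in villi-only and crypts-only peaks. Another member stood within 100 kb of 450 members (36.9%), and a shared peak within that distance of 334 (27.4%), though members are also the more numerous.

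Chromosome 4 held 193 members, 15.8% of all, on 5.74% of the assembled bases. Its part of the shared villi peaks was 9.43%, and of the crypts-only peaks 9.23%. Chromosome 7 followed with 105 members, chromosome 5 with 99, chromosome 1 with 93 and chromosome 15 with 74. On chromosome 15, members were 75.5% of the villi peaks, the highest share of any chromosome. The X chromosome held 6 members on 6.18% of the bases, and Y held 2.

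Many villi-only peaks stood close together in long runs. A run was taken as 5 or more members with gaps of at most 100 kb between neighbours. There were 16 such runs with 255 members, which is 20.9% (interval 18.7% to 23.3%). The same rule applied to crypts-only peaks gave 14 runs with 93 peaks (7.21%), the largest of 11. For shared villi peaks it gave 16 runs with 137 peaks (15.7%), the largest of 18. The villi-only run with the most peaks had 49. Of the 193 members on chromosome 4, 140 were in runs.

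**Figure D1:**
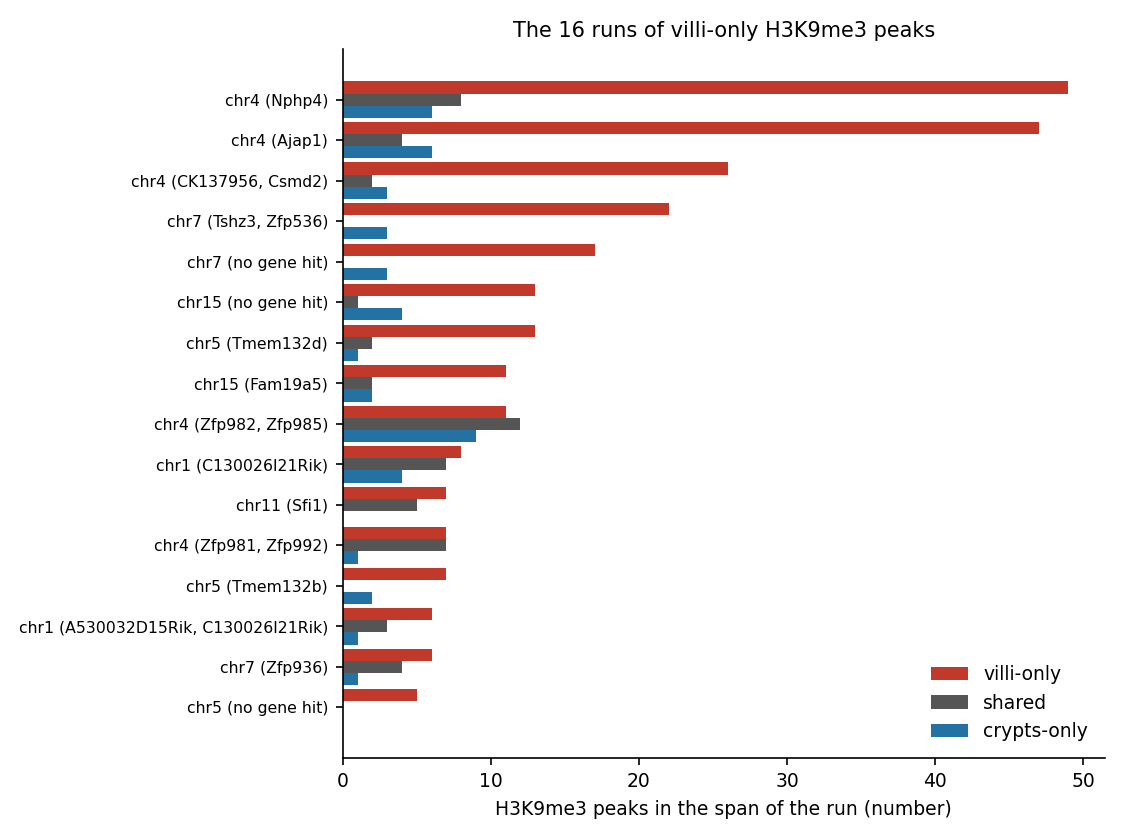
Number of H3K9me3 peaks inside the span of each of the 16 runs, as villi-only, shared and crypts-only peaks, with the chromosome and the protein-coding genes that members overlap. The first 8 runs hold far more villi-only than other peaks, whereas the run at Zfp982 and Zfp985 holds 11 villi-only, 12 shared and 9 crypts-only peaks.

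The pair of runs with the most members flanks and covers Ajap1, a gene for a membrane protein found at adherens junctions. The first spans chr4:152497036-153080196, 583 kb with 49 members, 8 shared villi peaks and 6 crypts-only peaks. Of its members 47 were intergenic and 2 in introns of Nphp4, which encodes a ciliary protein. The second spans chr4:153340914-153870423, 530 kb with 47 members, 4 shared and 6 crypts-only peaks. There 13 members lay in introns of Ajap1 and 34 in intergenic sequence. Member scores in this stretch ran from 10.1 to 19.1, and those of the shared peaks from 11.2 to 20.7, so the ranges overlap almost fully. Members were 8.40 and 8.88 per 100 kb in these runs.

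**Figure D2:**
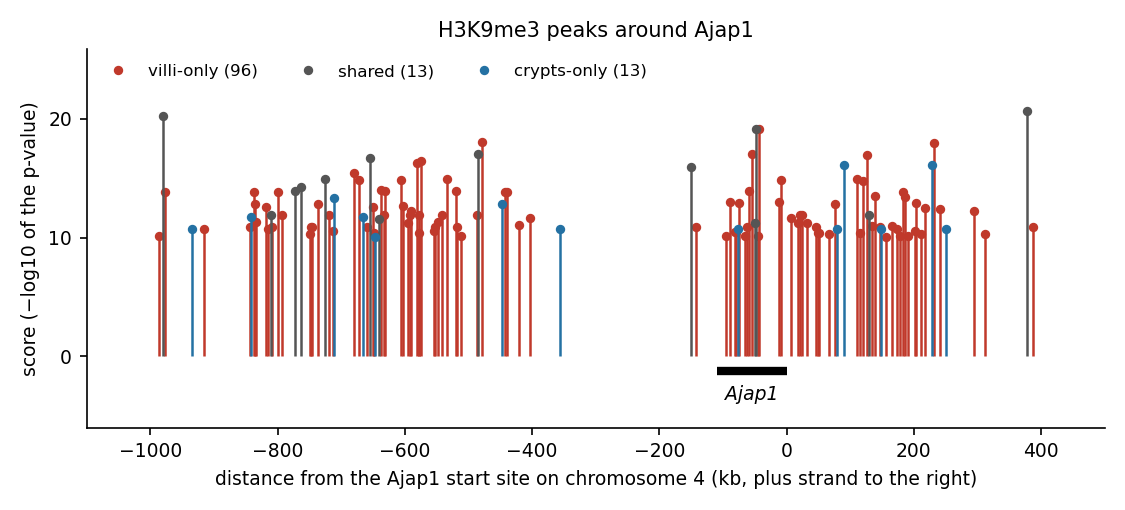
H3K9me3 peaks by distance from the Ajap1 start site on chromosome 4 (kb), with the score as height. Each point is 1 peak, at the score of its own list, shared peaks being drawn with their villi score. The 96 villi-only peaks form a dense block on either side of a peak-poor gap, with 13 shared and 13 crypts-only peaks among them.

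Csmd2, a large gene for a transmembrane protein with CUB and sushi domains, carried 15 members, 14 of them in introns and 1 in a coding exon. Part of it lies in a run at chr4:127744902-128395196 with 26 members, 2 shared and 3 crypts-only peaks. Next on chromosome 7 came a run of 22 members at chr7:36769549-37569163, between and within Tshz3 and Zfp536, genes for zinc finger transcription factors. A run of 17 members at chr7:35956981-36628991 overlapped no protein-coding gene. Neither of these held a shared peak, and each held 3 crypts-only peaks. On chromosome 15, 11 members at chr15:87334417-87760933 covered Fam19a5, which encodes a secreted chemokine-like protein, and 13 stood beyond it at chr15:87870659-88302876. On chromosome 5, 13 members lay in introns of Tmem132d at chr5:128116046-128348258, and 7 around Tmem132b, both genes for single-pass membrane proteins. A last small run of 5 members at chr5:126644987-126730157 held no crypts peak of any kind.

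The genes with most members in the runs named so far were Tmem132d, Csmd2, Ajap1 and Fam19a5. Tmem132d is 651 kb long and had 16 members, the most of any gene, of which 16 were in introns. Csmd2 is 580 kb long, Fam19a5 215 kb with 6 members, and Ajap1 110 kb with 13. No H3K4me3, H3K4me1 or H3K9me3 peak lay within 1 kb of their start sites in crypts or villi. An H3K27me3 peak was there for Fam19a5 in villi and for none of the other 3. Cdh13, for T-cadherin, is 1041 kb long and had 4 members outside any run, and its promoter had H3K27me3 in both compartments.

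The runs ranged from single-copy to multi-copy sequence. To measure this, each peak was read as 31-base words, and the share of words that occur once in the genome was taken. In 9 runs with 203 members the median member had 90% or more single-copy words, and 140 of those members had none but single-copy words. Their median soft-masked share was 8.89% and their median GC content 50.5%, where the genome has 36.4% and 41.7%. Across the 4.41 Mb they span there was no H3K4me3 and no H3K4me1 peak of either compartment, though the villi H3K4me1 list holds 55341 peaks. H3K27me3 had 2 peaks there in villi and 0 in crypts.

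The crypts numbering in these 9 runs had many unlisted numbers. Between the first and last listed crypts peaks inside each run, at least 204 crypts numbers were missing from the list, or 46.3 per Mb of run, against 1.78 per Mb over the genome. Both runs at Ajap1 had the most of the 16 runs, 97.7 and 125 per Mb. For the run on chromosome 5 with no listed crypts peak no such lower bound can be had, and up to 27 numbers could fall there. In the 7 other runs the values reached 81.0 per Mb, at Zfp981 and Zfp992. In the 9 single-copy runs the villi list itself lacked 547 numbers, and beside the 203 members 46 listed crypts peaks lay there. A villi-only call in a run therefore states that no listed crypts peak overlaps, and the level of H3K9me3 in crypts at these positions was not measured by the lists.

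The other 7 runs, with 52 members, fell below that limit, with run medians from 31.9% to 88.6% single-copy words. The higher of these were 69.3% at Zfp936, 83.5% at Sfi1 and 88.6% at Tmem132b, where every member had more than 50%. The 7 runs held 38 shared and 18 crypts-only peaks. A pair of them is at C130026I21Rik and its neighbours on chromosome 1, next to Sp110, the gene of a nuclear body protein. C130026I21Rik had 9 members, 9 shared villi peaks and 4 crypts-only peaks, with 38.0% single-copy words in the median member. The run at Sfi1, the gene of a centrin-binding spindle protein, had 7 members at chr11:3131925-3168634 with no crypts-only peak. Of these members 5 were in coding exons, and 4 were covered by H3K4me1 in villi and crypts alike. The remaining runs were at Zfp981 and Zfp992, at Zfp982 and Zfp985, at Zfp936 and around Tmem132b.

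Members outside the runs held more masked sequence than those inside. The median soft-masked share was 45.4% (quartiles 21.7% and 65.6%) for the 964 members outside runs and 10.8% (5.81% and 25.0%) for the 255 in runs. Low masking was a trait of the 9 single-copy runs, at 8.89%, while the 52 members of the other 7 runs had 35.2%. Over all members it was 37.2%, against 40.3% for shared villi peaks and 47.5% for crypts-only peaks. In-run members were also wider, with a median of 978 bp against 623 bp. Their median score, 11.9, was that of the members outside runs.

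**Figure D3:**
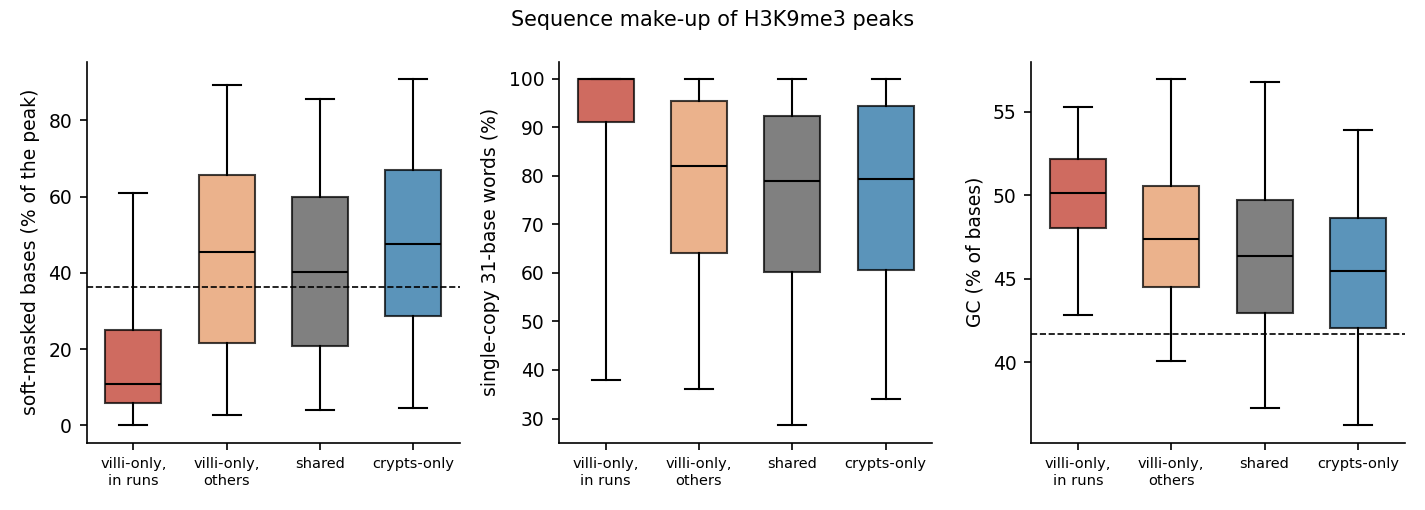
Soft-masked bases, single-copy 31-base words and GC content of H3K9me3 peaks in 4 sets, as boxes from the lower to the upper quartile with the median, and whiskers from the 5th to the 95th percentile. Dashed lines give the genome's soft-masked share (36.4%) and GC content (41.7%). Members in runs sit lowest in masked bases, with a median of 10.8%, and highest in single-copy words, with a median of 100%.

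Few members were copies of one another. Of 1219, 48 (3.94%) shared 20% or more of their words with another H3K9me3 peak, against 11.1% of shared villi and 6.90% of crypts-only peaks. The largest such family had 28 peaks, of which 6 were villi-only, on 5 chromosomes, 3 shared and 19 crypts-only. The 6 were 41.1% to 85.1% soft-masked. Tandem repeats of 40 or more bases with a unit of up to 6 bases were in 45 members (3.69%), 16 of them CA or TG repeats and 11 GA or TC repeats. Members with under 50% single-copy words numbered 126, and for those an aligner that reports 1 position per read cannot tell which copy carried the mark.

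Of the 10 highest-scoring members, 5 had under 50% single-copy words. The chr3 member, printed as the highest-scoring one, had 7.56% masked bases and 73.0 CpG per kb, in intergenic sequence 109074 bp from Gm8797. From 20.4% to 41.7% of its words recurred at each of 10 other places of the genome, among them introns or exons of Il31ra and Camk1d. The Jarid2 member had 41.7% single-copy words and 79.9 CpG per kb. Copies outside the assembled chromosomes, multi-copy RNA genes among them, are not counted here. For both members, whether the reads came from these positions or from other copies cannot be told from the lists, so their scores may not belong to these positions. The fourth by score, at chr4:146480307-146481074 with a score of 27.5, lay in a pseudogene or noncoding gene near Zfp992. Members at chr1:85272883-85274656 and chr1:85287296-85288743 near C130026I21Rik followed, with 36.0% and 33.1% single-copy words. In Sfi1, members scored 24.2 and 22.8. The ninth, at chr4:47114529-47115394 in an intron of Galnt12, scored 22.5 and had 83.3% single-copy words. The tenth was intergenic near Nutf2-ps1 with a score of 22.4.

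Most villi-only peaks lay outside genes. A protein-coding gene was overlapped by 347 members, 28.5% (interval 26.0% to 31.1%), against 37.0% of shared villi peaks (33.9% to 40.3%) and 34.8% of crypts-only peaks (32.3% to 37.5%). Such genes cover 39.3% of the genome, and all annotated genes 46.1%. By annotation 739 members (60.6%) were intergenic, outside all annotated genes, and 263 (21.6%) intronic. A further 133 (10.9%) lay in other genes such as pseudogenes and noncoding RNAs, and 17 (1.39%) in untranslated regions. Coding exons were touched by 62 members (5.09%, interval 3.99% to 6.47%), against 128 shared villi peaks (14.7%, interval 12.5% to 17.2%) and 72 crypts-only peaks (5.59%, interval 4.46% to 6.98%). Such exons cover 1.37% of the genome, below each of these shares. A peak touches an exon more easily than a single base does.

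The median distance to a protein-coding start site was 58430 bp (quartiles 16922 and 209723 bp). It was 21817 bp for shared villi peaks and 25637 bp for crypts-only peaks. Members over 100 kb from any start site numbered 475 (39.0%), against 14.9% of shared and 20.7% of crypts-only peaks. For members in runs the median was 156165 bp, and outside runs 47833 bp, still more than in the other 2 classes.

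**Figure D4:**
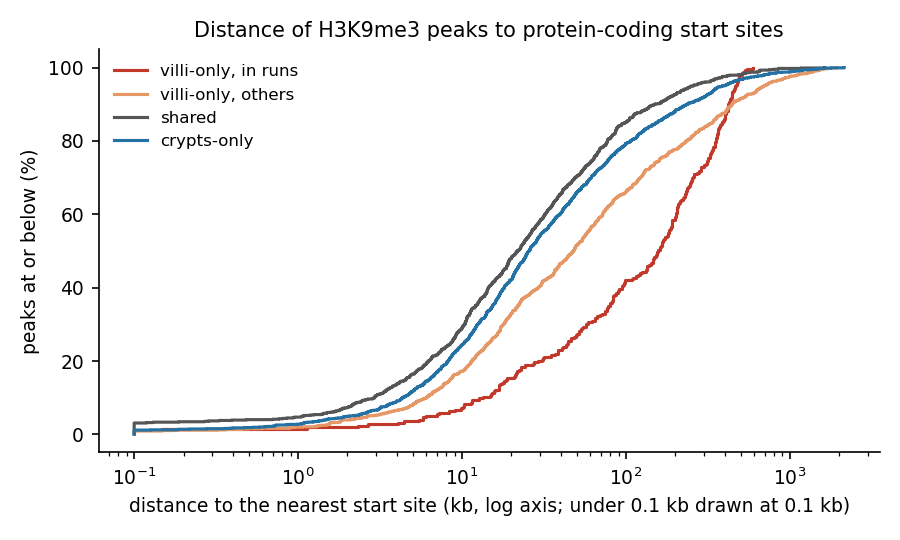
Cumulative share of H3K9me3 peaks by distance to the nearest protein-coding start site (kb, log axis), for members in runs, other members, shared villi peaks and crypts-only peaks. The medians are 156165 bp for members in runs, 47833 bp for other members, 21817 bp for shared and 25637 bp for crypts-only peaks.

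Promoters with a villi-only peak were 23 members, 1.89% (interval 1.26% to 2.82%), where 2.44% of the genome lies within 1 kb of a start site. The share was 4.71% for shared villi peaks (3.49% to 6.33%) and 2.79% for crypts-only peaks (2.02% to 3.84%). Among members in the top 50% of the villi list by score it was 2.98% (interval 1.78% to 4.94%). That interval holds the genome's share. Scores of the 23 ran from 10.1 to 18.5, and 11 touched a coding exon. H3K4me3 lay over 2 of them, at Mkrn3 and Impact, in villi and crypts alike. Both genes are known as imprinted and expressed from the paternal copy. At Mkrn3 the member, chr7:62419062-62419769 with a score of 11.6, had 100% single-copy words and no masked base. There 19 crypts numbers were unlisted between the flanking crypts peaks. The Impact member scored 10.4, and H3K4me3 peaks of both compartments covered its 561 bp in full.

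The other members near start sites did not overlap H3K4me3. Within 1 kb of the start sites, though, H3K4me3 was called in villi and crypts for Ppp4r4, 6820408C15Rik and Zcchc3, beside Mkrn3 and Impact, and for the other genes named here in neither. One member, with a score of 17.0, was at Cyp21a1, the gene of steroid 21-hydroxylase. Members at Spata9, Gsg1 and Smok2b scored 12.8, 12.4 and 15.9, and the one at H2bfm, for an H2B-like histone on the X chromosome, scored 11.9. At Ppp4r4, for a phosphatase regulator, the score was 13.8. Promoters of Zfp981, Zfp982 and Zfp985 in the chromosome 4 zinc finger cluster scored 12.9, 17.0 and 11.1. At the promoters of C130026I21Rik and Sp110 the scores were 18.5 and 15.8. Those of 4933415F23Rik, 1700029P11Rik, Gm9008, Gm11077, Gm21836, Gm37388, Pcdha1, Pcdhga11 and 6820408C15Rik with Zcchc3 were among the 23 as well.

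Zinc finger genes, known to carry H3K9me3 over the exons that encode the fingers, held 24 members, 1.97% of all (interval 1.33% to 2.91%). They lay in 19 of 424 genes named Zfp, Zkscan or Zscan (4.48%), where 1.31% of all 21911 protein-coding genes held a member. Of the 347 members in protein-coding genes they were 6.92%, and such genes make up 1.23% of protein-coding gene length. Shared villi peaks lay in 13.0% of zinc finger genes and crypts-only peaks in 10.4%, and such peaks were 21.7% and 11.8% of those in protein-coding genes. Shared villi peaks in such genes numbered 70 (8.05%, interval 6.42% to 10.0%) and crypts-only peaks 53 (4.11%). Of the 24 members 8 touched a coding exon, as did 53 of the 70 shared and 21 of the 53 crypts-only peaks. Zfp981 had 4 members and Zfp933 a pair with scores of 12.3 and 14.0. Zfp949 had the highest score of the 24, 21.4, in a coding exon at chr9:88568565-88570679 with 100% single-copy words. The nearest protein-coding gene was a zinc finger gene for 83 members (6.81%), against 14.4% of shared villi and 8.22% of crypts-only peaks. It was so for 14.1% of members in runs and 4.88% of those outside.

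Clustered protocadherin genes, which give neurons their surface identity, held 7 members, all in coding exons, or 0.574% of members (interval 0.278% to 1.18%). Shared peaks there were 4, or 0.460% (0.179% to 1.18%), and crypts-only peaks 3, or 0.233% (0.0792% to 0.682%). They lay in Pcdha1, in an exon of the Pcdha group shared with gene model Gm37388, in Pcdhb8, Pcdhb12 and Pcdhb22, and at 2 places of the Pcdhg group. Scores ran from 10.3 to 13.8. The long gene models Gm37013, Gm37388 and Gm42416 span the same cluster, and their 7 members each partly repeat these. The Pcdhga11 member was covered over its 2262 bp by villi H3K27me3. Members inside olfactory receptor genes, vomeronasal receptor genes and immunoglobulin or T cell receptor segments numbered 0, which allows up to 0.314% (upper Wilson bound). Vomeronasal genes held 7 shared and 3 crypts-only peaks, and olfactory receptor genes 0 and 1. The nearest protein-coding gene was an olfactory receptor gene for 23 members (1.89%), against 0.920% of shared and 1.86% of crypts-only peaks. For 21 members (1.72%) it was a vomeronasal receptor gene, against 2.18% of shared and 0.776% of crypts-only peaks.

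Among other genes with 3 or more members, D10Wsu102e and Gm20388 had 3 each, and their promoters had H3K4me3 in villi and crypts. Of 30 imprinted genes looked up with 1 kb on either side, a list that does not hold Mkrn3 and Impact, Peg3 was the one with a member, at chr7:6707957-6708509 with a score of 12.8, in addition to a shared peak at chr7:6727556-6728988. Crypts-only peaks were at 5 genes of that list (Airn, Plagl1, Grb10, Gnas and Nespas). Of 14 germline genes, 0 had a member and 2, Slc25a31 and Brdt, a crypts-only peak. Of 22 genes for H3K9me3 writers, readers and erasers, 1 had a member. Over all protein-coding genes, without the added 1 kb, 1.31% held a member and 1.93% a crypts-only peak, so a count of 0 or 1 is near that background. The gene with the member was Atf7ip, whose protein partners SETDB1, with a score of 11.6 at chr6:136513920-136514936.

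Active marks were rarely called at villi-only peaks. Villi H3K4me1, a mark of enhancers, overlapped 19 members (1.56%, interval 1.00% to 2.42%). The share was 3.68% for shared villi peaks (2.62% to 5.15%) and 4.58% for crypts-only peaks (3.56% to 5.86%). H3K4me1 peaks cover 3.85% of the genome in villi, so even the bare coverage exceeds the members' share. Of the villi H3K4me1 peaks 17.9% have no crypts counterpart, and of the 19 members 4 lay at such a peak. Villi H3K4me3, the promoter mark, overlapped 3 members (0.246%, interval 0.0837% to 0.721%) and crypts H3K4me3 4. Its peaks cover 1.13% of the genome in villi, and in villi they overlapped 1.15% of shared and 0.543% of crypts-only peaks. Beside Mkrn3 and Impact these were a member in a coding exon of Eef2, the gene of translation elongation factor 2, with H3K4me3 in crypts, and an intergenic one 158543 bp from Csl.

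H3K27me3, the Polycomb mark, overlapped 33 members in villi (2.71%, interval 1.93% to 3.78%) and 16 in crypts (1.31%, interval 0.810% to 2.12%). Its peaks cover 1.34% of the genome in villi and 0.765% in crypts, and a peak touches another more easily than a single base does. Shared villi peaks overlapped it at 3.45% in villi and 3.10% in crypts. Of the villi H3K27me3 peaks as a whole 55.6% have no crypts counterpart, and 17 of these 33 members lay at such a peak. The members concerned were mostly inside the mark, 29 of 33 with at least 90% of their length. None of the 33 was in a run, and 2 were within 1 kb of a start site. Examples, picked after their values were seen, lay 8564 bp from Olig2, a transcription factor gene, and in Zc3h7b and P4ha3, with H3K27me3 in both compartments. With H3K27me3 in villi alone, members were 8026 bp from Krt6b, a keratin gene, and in Rab37, a gene for a small GTPase of secretory vesicles, which had 2. The highest score among the 33 was 21.4, in an intron of Tox2.

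**Figure D5:**
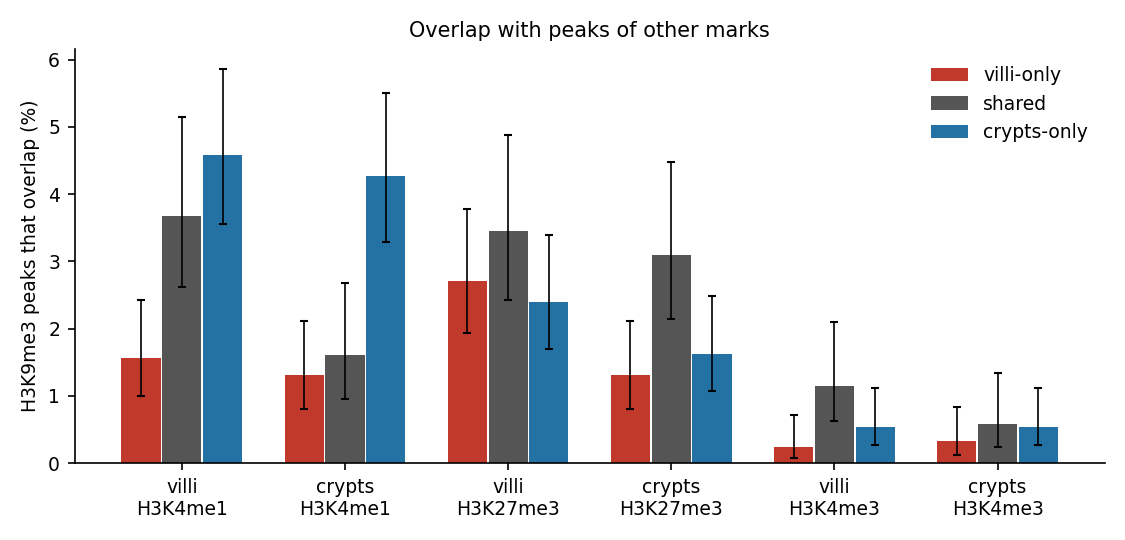
Share of villi-only, shared and crypts-only H3K9me3 peaks that overlap a peak of another mark in villi or crypts by 1 bp or more, with 95% Wilson intervals (counting error only). Villi-only peaks have the lowest share for H3K4me1 and H3K4me3 in villi, 1.56% and 0.246%, and for villi H3K27me3 2.71% lies between the other 2 classes.

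In all, 60 members (4.92%, interval 3.84% to 6.28%) overlapped any peak of the other 4 marks in either compartment, against 8.85% of shared villi peaks (7.14% to 10.9%). For crypts-only peaks the share was 8.46% (7.06% to 10.1%). The H3K9me2 lists hold 3 regions in villi and 6 in crypts. One of the villi regions overlapped 1 member, chr1:85093720-85094393 in C130026I21Rik, which had a score of 19.5 and 18.5% single-copy words.

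The hexamer TGCCGC, searched on both strands, is the core of the sequence that ZFP57 binds at imprinted regions when it is methylated. It was in 144 members (11.8%), in 17.4% of shared villi peaks and in 10.3% of crypts-only peaks. Per kb of peak this is 0.173, 0.189 and 0.139 matches. Of 32851 RefSeq promoter windows of 300 bases, 11.6% hold it. A match is a description of the letters and not a bound site.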

How the data were processed

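Members, runs and gene lists were chosen with earlier results of these data known. The authors mapped the read pairs to the mouse (mm10) and fly (dm6) genomes by Bowtie 1.1.2, keeping 1 position per read, removed duplicates and called peaks with MACS2 2.1.1 at a p-value of 1e-10 (submitters' notes also name deepTools 3.1). The deposited lists give a −log10 p-value per peak, taken as such from that threshold and used here only as a score within a list. The spike-in does not enter it, and the depth is unknown because no counts are given. Overlaps of 1 bp or more were computed in Python 3.11.15 and checked with bedtools 2.31.1 and on simulated intervals. Genes and start sites came from GENCODE M21, sequence and soft-masking from RefSeq GRCm38.p6. Copy number used 31-base words, taken every 10 bases. Wilson intervals were from SciPy 1.17.1 and cover counting error only. Neighbouring peaks are not independent, and peaks are not replicates. Genes named were those at the 10 highest-scoring members, with 3 or more members, with a member within 1 kb of a start site, or in the listed families. Inputs were not analysed here. Repeat families are not named. One promoter and 1 marker gene are not reported here.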

Additional observations from a re-analysis of the deposited data

How the results depend on the processing

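Of 60 alternative values, 47 stayed within the 95% interval of the reported one and 13 did not. Requiring each peak to be overlapped over 50% of its length raised the villi-only share from 58.4% to 70.0%, and taking the top 50% of the villi list by score lowered it to 44.8%. That top 50% also gave 2.98% of members within 1 kb of a start site and a median soft-masked share of 41.7%. Members with mostly single-copy words had a median of 33.9%. With all annotated genes, 39.4% of members overlapped a gene and 9.43% lay within 1 kb of a start site, and a 5 kb window gave 7.05%. Merging peaks under 1 kb apart gave 7.03% within 10 kb of a shared peak. The next alternatives were chosen after seeing the data. Without the members in runs, the median soft-masked share was 45.4% and 4.98% lay within 10 kb of a shared peak. With gaps of up to 50 kb, runs held 16.1% of members, and with up to 200 kb, 23.4%. Counting a crypts peak within 1 kb as shared, or using autosomes only, moved no value outside its interval. No paired analysis was possible because each group has 1 library, and for the same reason no replicate could be left out. Depth is unknown, so a peak missing from the crypts list cannot be read as absence of the mark.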
